A study of Mus musculus with 6 samples.

Results

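Type I interferon response genes were followed in mouse bone marrow-derived macrophages (BMDM) exposed to medium conditioned by cancer cells, with or without its lipids. The set is a list of 39 symbols, classical targets of type I interferon, and all 39 were found among the 46603 gene rows of the count tables. Every one of them passed the filter on low counts, so 39 of the 12767 genes tested belong to the set. The cells were grown from marrow of C57BL/6/J mice aged 7 weeks in medium with 10% serum and 20% L929-conditioned medium, a source of macrophage growth factor. At day 6 they were reseeded, and 6 h later they received the conditioned medium. In one group (3 libraries) it contained lipids, and in the other (3 libraries) they were absent. Transcripts were measured by RNA-seq of stranded mRNA libraries. Both groups share the cancer cell-conditioned medium and the L929-conditioned medium, and macrophages without cancer cell-conditioned medium were not analysed here. The comparison asks whether the lipid content of the medium moves these transcripts. Which cancer line was used, how the lipids were taken out and how long the exposure lasted is each not given in the sources used here.

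Type I interferons bind a receptor made of the Ifnar1 and Ifnar2 chains, and the kinases Jak1 and Tyk2 then signal through Stat2. Stat2 joins Irf9 in a complex that binds the interferon-stimulated response element (ISRE) at target promoters. Macrophages keep a low tonic level of this response, and it rises when sensors of foreign RNA or DNA trigger interferon production.

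The response element is visible in the promoters of the set. RefSeq promoter windows on GRCm38.p6, from 250 bases before to 50 bases after each annotated start, matched 29 of the 39 genes. The ISRE letters GAAANNGAAA, read on both strands with overlapping matches counted, were present in the windows of 18 of these 29 genes (62.1%, 95% Wilson interval 44% to 77.3%). They were held by 3.84% of 9583 other tested genes and by 3.99% of all 27025 genes with a promoter window. The stretches below are printed because they show how the element is placed singly, in pairs or in an overlapping run. Capitals mark ISRE letters, and runs in capitals that begin with TTTC are matches on the opposite strand.
Ifit1 (chr19:34640760-34640838, + strand): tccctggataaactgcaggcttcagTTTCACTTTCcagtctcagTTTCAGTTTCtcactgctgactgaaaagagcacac
Ifit3 (chr19:34583348-34583441, + strand): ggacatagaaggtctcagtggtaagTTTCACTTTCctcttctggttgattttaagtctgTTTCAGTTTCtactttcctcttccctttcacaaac
Ifit3b (chr19:34607744-34607837, + strand): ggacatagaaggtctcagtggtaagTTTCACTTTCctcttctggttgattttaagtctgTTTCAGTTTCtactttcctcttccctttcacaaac
Isg15 (chr4:156200850-156200921, - strand): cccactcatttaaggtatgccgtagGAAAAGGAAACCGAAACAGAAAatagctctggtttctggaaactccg
Oas1a (chr5:120907526-120907570, - strand): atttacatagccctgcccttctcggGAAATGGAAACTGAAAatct
Oas3 (chr5:120777700-120777759, - strand): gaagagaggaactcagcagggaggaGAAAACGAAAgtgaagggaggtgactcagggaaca
Isg15 held 3 overlapping copies, and Ifit3 and Ifit3b carried the same letters over the whole printed stretch. The window of Ifi44 held no ISRE letters, which says only that they are not in these 300 bases. Oas2, Ifi204, Dhx58, Zbp1, Usp18, Mx1, Mx2, Rtp4, Parp14 and Iigp1 had no entry in the promoter table.

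**Figure D1:**
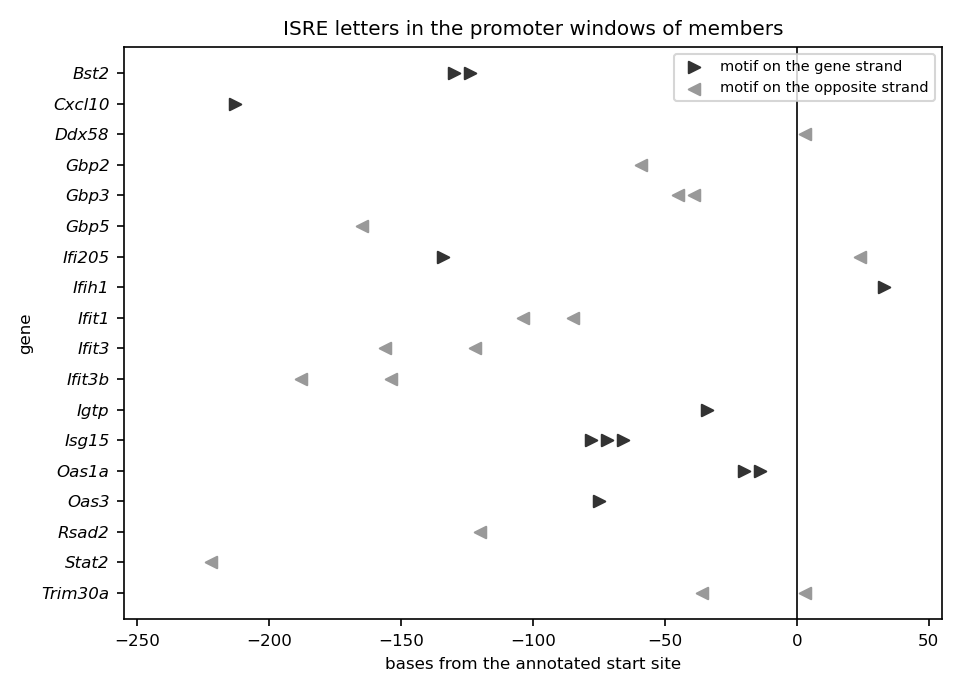
Position of ISRE letters in the promoter windows of the 18 members that hold them (x axis, bases from the annotated start site to the leftmost base of the match; y axis, gene). Triangles point right for the gene strand and left for the opposite strand, and Isg15 shows 3 adjoining matches.

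With lipids in the medium 3 of the 39 genes were higher and 0 lower at an adjusted p of 0.05 (edgeR, quasi-likelihood). The 3 were Oas2, which makes the oligoadenylate messenger that activates RNase L, the DNA sensor gene Ifi204, and the antiviral gene Ifi44. The share called higher was 7.69%. Of all tested genes 4.58% were called higher and 6.87% lower (11.5% in either direction), so the count of higher genes lies near the background. At an unadjusted p under 0.05, 12 members were on the higher and 4 on the lower side, which is 41% of the set beside 26.6% of all tested genes. DESeq2 and limma-voom also called 3 members higher and 0 lower. The remaining members stayed within a narrow band, with log2 fold changes (with minus without lipids) between -0.20 for Irf7 and 0.38 for Iigp1.

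Library totals ran from 19429022 to 25323053 counts, and the labels name no batch. The labelled cell type was checked against its markers. All 10 macrophage markers were detected, with a summed level of 31670 to 32120 CPM (counts scaled to a common library size) with lipids and 31040 to 35970 CPM without, most of it from Lyz2. Of the 10, 3 were higher with lipids, Mrc1 by 0.75, Itgam by 0.56 and Fcgr1 by 0.29 log2, and Cd68 was lower at -0.55 log2 (edgeR adjusted p = 1.49e-05, 7.72e-05, 0.00815 and 0.000306). Of all tested genes 4.58% were higher and 6.87% lower. The part of the macrophage markers in the results was not tested. Summed epithelial markers lay at 0.498 to 0.843 CPM with lipids and 0.478 to 0.632 CPM without, with Krt8, Krt18 and Krt5 at 0. Plasmacytoid dendritic cells are strong makers of interferon, and the sum of their 8 markers lay at 0.577 to 0.843 CPM with lipids and 0.789 to 1.01 CPM without, with Klk1 and Cd209d at 0. Summed markers of neutrophils, conventional dendritic cells, T and NK cells, B cells and erythroid cells stayed at or below 2.39 CPM in every library. Fibroblast markers were present at 119.8 to 126.8 CPM with lipids and 124.5 to 169 CPM without, and all 6 tested had negative values (median -0.25). Of these Col3a1 was lower at -0.50 (edgeR adjusted p = 0.014), and for Pdgfra, which did not pass, every library with lipids also lay below. Their part in the results was likewise not tested. In bulk RNA, fewer responding cells and less transcript per cell cannot be told apart. No label ties a replicate to its own mouse or culture, and the p-values therefore rest on the spread among these libraries, which may be technical.

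Per length, the members spanned a wide range of abundance. Bst2, also called tetherin, which holds budding virus at the cell surface, was the most abundant at 123 CPM per kilobase of exon (RPKM), averaged over the 6 libraries. Rtp4 followed at 64.4, Trim30a at 60.2 and Oas1a at 58.8 RPKM. At the other end stood Gbp5 at 0.886, Iigp1 at 0.681 and Ifi205 at 0.371 RPKM. In 25 of the 39 genes the mean reached at least 10 RPKM in each group, so the set was measured well above the counting floor (3 counts correspond to 0.115 to 0.159 CPM).

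**Figure D2:**
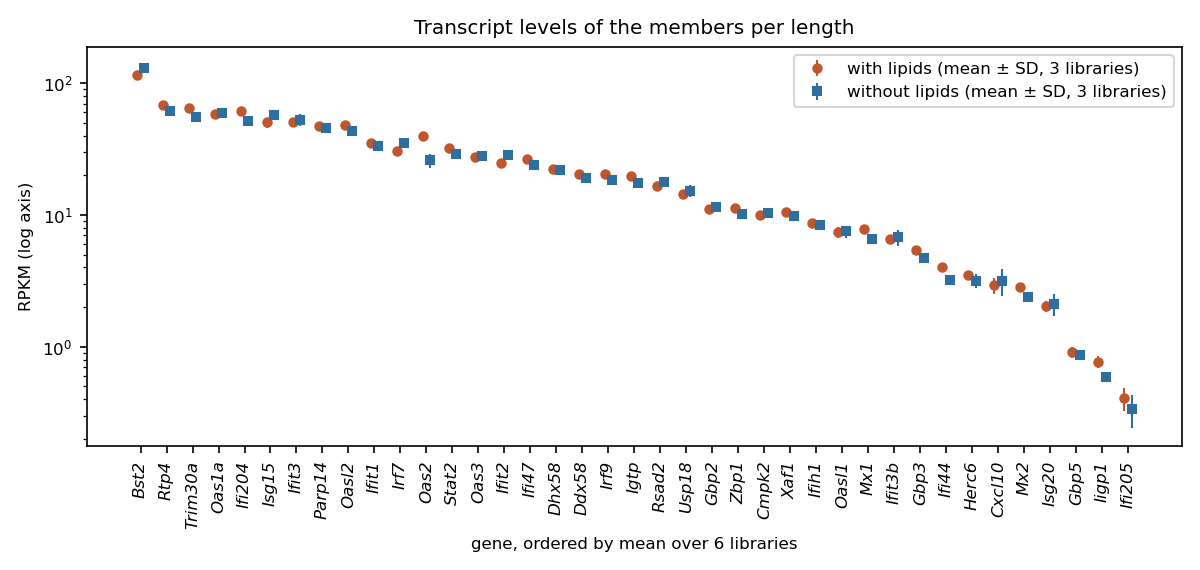
Level of each member per length (y axis, RPKM on a log axis; x axis, genes ordered by their mean over the 6 libraries), as mean ± SD over 3 libraries with lipids (circles) and 3 without (squares). Bst2 lies highest at 123 RPKM and Ifi205 lowest at 0.371 RPKM, and Oas2 shows the widest gap between groups.

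The OAS family held the largest change of the set. Oas2 (ENSMUSG00000032690, chr5:120730333-120749853, GRCm38) was at 179, 167 and 181 CPM with lipids and at 114, 102 and 130.1 CPM without. Every library with lipids lay above every library without. The means were 176 ± 7.6 and 116 ± 14 CPM (SD, n = 3 each), which is 0.61 on the log2 scale (with minus without lipids, SE 0.08, edgeR adjusted p = 0.00101). Among the settings tried, with each library left out in turn included, its log2 fold change stayed between 0.52 and 0.70 and passed the threshold in each. No exon of Oas2 overlaps another gene of the annotation, and 0% of the 50-base words in its longest transcript occur in another gene.

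The other listed genes of the Oas1 to Oas3 cluster on chromosome 5 did not pass the test, with values of either sign. Any gene of the cluster outside the lists was not examined. Oas3, which makes the same messenger and lies next to Oas2 (chr5:120753098-120777661), was at 198, 203 and 178 CPM with lipids and at 209.5, 203 and 183 CPM without, a difference of -0.04 log2 (SE 0.07, edgeR adjusted p = 0.771). Oas1a was at 117, 108 and 102 CPM with lipids and at 115, 113 and 109.9 CPM without (-0.05, SE 0.06, edgeR adjusted p = 0.694). With libraries scaled by their totals alone the signs turned, to 0.04 for Oas3 and 0.03 for Oas1a. For both genes the groups overlapped, and 57.6% of the 50-base words of Oas1a also occur in its close copy Oas1g, so reads of the pair may be shared. Outside the set, Oas1b was at 0.28 and Oas1g at 0.15 (edgeR adjusted p = 0.144 and 0.184), both with every library with lipids above every library without, and Oas1c was at -0.08. The count of Oas2 divided by that of Oas3 within a library does not depend on how libraries are scaled. This ratio, chosen after the values were seen, was 0.908, 0.823 and 1.02 with lipids and 0.546, 0.505 and 0.71 without. The groups did not overlap, with a mean log2 difference of 0.65 (SD 0.15 with lipids and 0.26 without, exact two-sided permutation p = 0.1, the smallest that 3 against 3 allow).

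Oasl1 and Oasl2 encode OAS-like proteins. Oasl2 was at 324, 312 and 286 CPM with lipids and at 286, 265 and 273 CPM without, a narrow separation of the groups at 0.16 (SE 0.06, edgeR adjusted p = 0.128). Oasl1 lay near 19 CPM in both groups and its change was -0.02.

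Among nucleic acid sensors, Ifi204 was higher with lipids. Ifi204 (ENSMUSG00000073489, chr1:173747293-173766943) belongs to the PYHIN family of DNA-binding proteins. It was at 208, 224 and 219 CPM with lipids and at 195, 170.1 and 189 CPM without, with no overlap, and the difference was 0.24 log2 (SE 0.07, edgeR adjusted p = 0.0408). The call was lost on removal of replicate 1, 2 or 3 with lipids (edgeR adjusted p = 0.0831, 0.196 and 0.155), on removal of replicate 2 without lipids (0.158), and after a correction for GC content and length (0.12, edgeR adjusted p = 0.0907). Ifi204 shares 30.2% of its 50-base words with other genes, mostly Ifi211, so its counts may depend on how shared reads were treated. Its relative Ifi205 was barely detected, with 1.70 ± 0.34 CPM with lipids and 1.41 ± 0.39 CPM without.

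Zbp1, a sensor of nucleic acids in the Z form, was at 41.2, 41.4 and 37.3 CPM with lipids and at 35.3, 35.1 and 36.5 CPM without. The groups did not overlap, but the log2 fold change of 0.17 (SE 0.07) did not pass (edgeR adjusted p = 0.165). The cytoplasmic RNA sensors Ddx58 (RIG-I) and Ifih1 (MDA5) and their regulator Dhx58 (LGP2) were at 0.10, 0.06 and 0.03 log2, none past the threshold. Ddx58 averaged 144 ± 3.0 CPM with lipids and 134 ± 5.9 CPM without.

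The transcription factors of the response showed small differences of either sign. Irf7, which amplifies interferon production, was at 119, 121 and 109 CPM with lipids and at 129, 140.5 and 131 CPM without. Libraries with lipids were all lower, but the log2 fold change of -0.20 (SE 0.06), the most negative of the set, did not pass (edgeR adjusted p = 0.0734). Stat2 lay on the other side, at 194, 188 and 188 CPM with lipids and 173, 167 and 174 CPM without (0.15, SE 0.05, edgeR adjusted p = 0.109). Irf9 was at 112, 107 and 108 CPM with lipids and 97.2, 96.5 and 105 CPM without (0.13, SE 0.06, edgeR adjusted p = 0.192). Groups of Stat2 and of Irf9 also stood apart without overlap. Irf9 shares exon sequence with Rnf31 on the same strand, where 123 bases overlap, and Irf7 overlaps Phrf1 on the other strand over 45 bases, so reads there may be assigned to either gene.

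None of the 4 IFIT genes passed the test, where 11.5% of all tested genes did. These genes encode proteins that recognise foreign RNA ends, and they lie together on chromosome 19. Ifit2 was at 96.7, 101 and 94.7 CPM with lipids and at 122, 105 and 107 CPM without, so that all libraries with lipids were lower, at -0.19 (SE 0.07, edgeR adjusted p = 0.114). Ifit1, Ifit3 and Ifit3b were at 0.06, -0.05 and -0.03. Ifit3 and Ifit3b, whose printed promoter stretches are identical, also share part of their transcripts. Of the 50-base words of Ifit3, 51.2% occur in Ifit3b, and 44.5% of those of Ifit3b in Ifit3, so their 88.3 ± 5.8 and 13.2 ± 0.97 CPM with lipids may be split unevenly by read assignment.

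The ISG15 system attaches a small ubiquitin-like protein to other proteins. Isg15 itself was at 41.2, 38.0 and 34.7 CPM with lipids and at 42.9, 45.2 and 41.0 CPM without, at -0.18 (SE 0.08, edgeR adjusted p = 0.183) with overlapping groups. Usp18, which removes Isg15 and restrains the interferon receptor, was at -0.08. Herc6, the ligase that attaches Isg15 in mice, was at 32.2, 33.0 and 32.0 CPM with lipids and at 33.3, 27.1 and 27.8 CPM without. Replicate 1 without lipids was the highest Herc6 library, and the change of 0.14 (SE 0.09) did not pass (edgeR adjusted p = 0.346).

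Of the 11 other antiviral effectors only Ifi44 passed, beside 4.58% of all tested genes higher and 6.87% lower. Ifi44 (ENSMUSG00000028037, chr3:151730922-151749960) was at 24.5, 26.4 and 22.8 CPM with lipids and at 21.4, 18.5 and 18.9 CPM without. Groups did not overlap, and the difference was 0.33 log2 (SE 0.09, edgeR adjusted p = 0.0409). This call was lost in 5 of the 6 fits that left out a library, the exception being removal of replicate 1 without lipids, with edgeR adjusted p between 0.0734 and 0.212, and after the GC and length correction (0.0601).

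Mx1 and Mx2 are GTPases that block viral replication. Mx1 was at 28.9, 29.4 and 30.01 CPM with lipids and at 25.6, 23.4 and 26.1 CPM without (0.23, SE 0.08, edgeR adjusted p = 0.0748), and Mx2 was at 0.25 (edgeR adjusted p = 0.143). Trim30a, a ubiquitin ligase family member, was at 271, 269 and 256 CPM with lipids and at 247, 208 and 233 CPM without (0.21, SE 0.07, edgeR adjusted p = 0.0751). In these 3 genes the libraries with lipids were all higher, by an amount that did not pass the threshold.

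Bst2 lay on the opposite side from Mx1 and Trim30a. It was at 104, 109 and 100.1 CPM with lipids and at 114, 125 and 117 CPM without, again with no overlap (-0.19, SE 0.06, edgeR adjusted p = 0.0824). Rtp4 was at 155, 144 and 134 CPM with lipids and at 134, 121 and 134 CPM without (0.15, SE 0.07, edgeR adjusted p = 0.196). Rsad2 (viperin), which makes a chain-terminating nucleotide, and its neighbour Cmpk2, a mitochondrial nucleotide kinase, were at -0.11 and -0.06. The exonuclease gene Isg20, the ADP-ribosyltransferase gene Parp14 and Xaf1 were at -0.05, 0.07 and 0.11. None of these 7 genes passed.

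Interferon-inducible GTPases act on membranes around intracellular microbes and answer to both type I and type II interferon. Of the 6 in the set 0 passed with edgeR, DESeq2 or limma-voom, where 11.5% of all tested genes passed with edgeR. Positive values were held by 5 of the 6 (median 0.15), beside 49.2% of all tested genes. Ifi47 was at 64.7, 66.3 and 65.7 CPM with lipids and at 59.7, 57.2 and 60.8 CPM without (0.15, SE 0.06, edgeR adjusted p = 0.143). Iigp1, scarcely expressed, was at 4.93, 4.001 and 4.54 CPM with lipids and at 3.21, 3.56 and 3.54 CPM without (0.38, SE 0.14, edgeR adjusted p = 0.107). The groups did not overlap for Ifi47 or Iigp1. Ifi47 shares exon bases with Olfr56, and Igtp with Irgm2, on the same strand. Igtp, Gbp3, Gbp5 and Gbp2 were at 0.15, 0.21, 0.08 and -0.04. Cxcl10, a chemokine for T cells and a sensitive interferon target, averaged 6.60 ± 0.90 CPM with lipids against 7.10 ± 1.6 CPM in their absence (-0.10, SE 0.17, edgeR adjusted p = 0.749), so both groups held little of it.

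**Figure D3:**
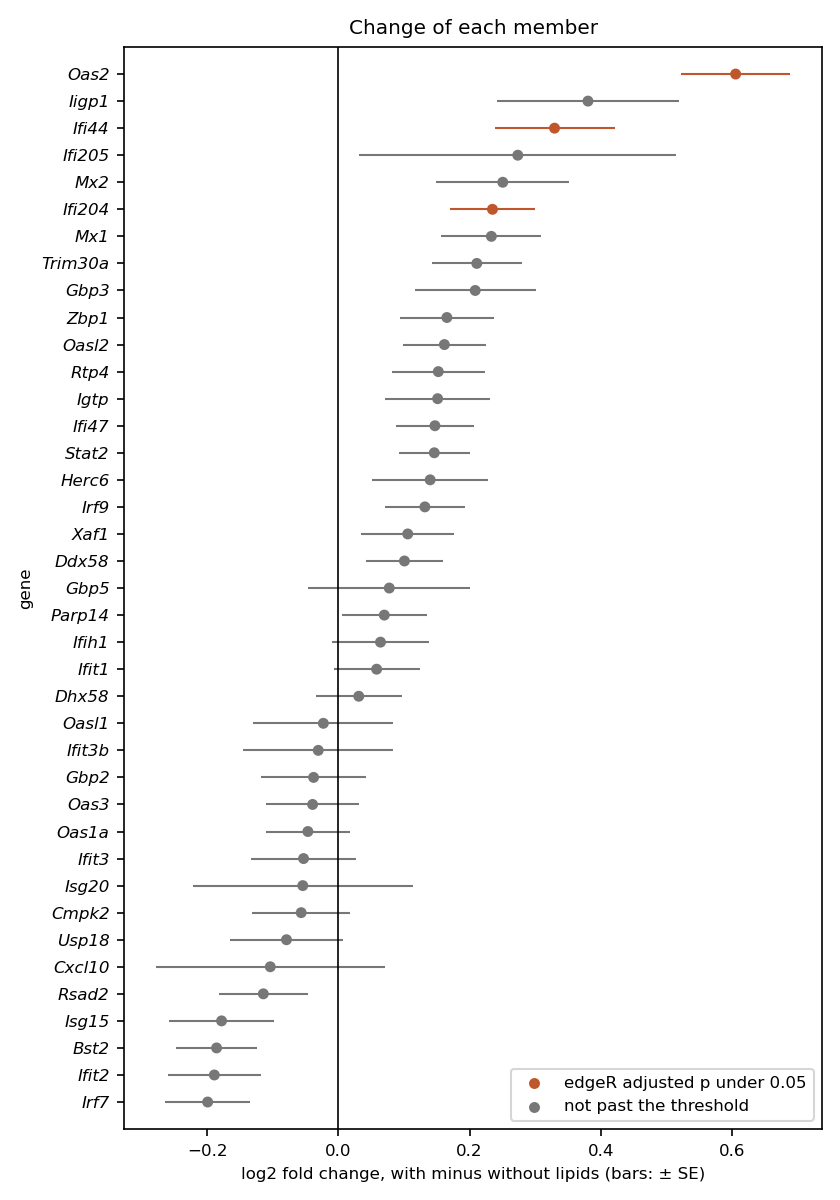
Log2 fold change of each of the 39 members (x axis, with minus without lipids; y axis, genes ordered by the change), with bars for ± SE from the edgeR fit. Oas2, Ifi204 and Ifi44 are coloured as past an adjusted p of 0.05, and Oas2 at 0.61 stands apart from the rest.

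By sign alone, 24 members had positive and 15 negative values, that is 61.5% positive against 49.2% of all tested genes. The median was 0.08 over the members and -0.00 over all tested genes. Libraries with lipids lay wholly above those without in 14 members (35.9%) and wholly below in 3 (7.69%), where 14.7% and 15.8% of all tested genes did so. With library totals alone 32 members were positive (82.1% against 64.4% of all tested genes), and 8 had changed sign, namely Ifit3, Ifit3b, Oas1a, Oas3, Oasl1, Isg20, Cmpk2 and Gbp2, none of them called in either fit. The size of change was ordinary, since the median absolute log2 fold change was 0.14 in the members and 0.14 over all tested genes. Summed over members the level was 3612, 3548 and 3424 CPM with lipids and 3449, 3188 and 3332 CPM without. The sums overlap between groups, because replicate 1 without lipids lies above replicate 3 with lipids.

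Single libraries stood out among the members. Replicate 2 without lipids held the lowest value of the 6 libraries in 21 of the 39 members (53.8%), against 17.8% of all tested genes. In that library the members lay at a median of -0.11 log2 from their own means. Replicate 1 with lipids was the highest library in 14 members (35.9%, against 12.8% of all tested genes). Replicate 1 without lipids was the highest in 10 members (25.6%, near the 20.8% of all tested genes), among them Ifit2, Ifit3, Ifit3b, Usp18, Rsad2 and Cmpk2. Replicate 3 with lipids was the lowest library in 10 members (25.6%, against 12.3% of all tested genes), among them Irf7, Isg15 and Bst2. When replicate 2 without lipids was left out, 1 member, Oas2, was called higher (1.87% of all tested genes, and 3.69% lower) and the median over the members was 0.05.

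**Figure D4:**
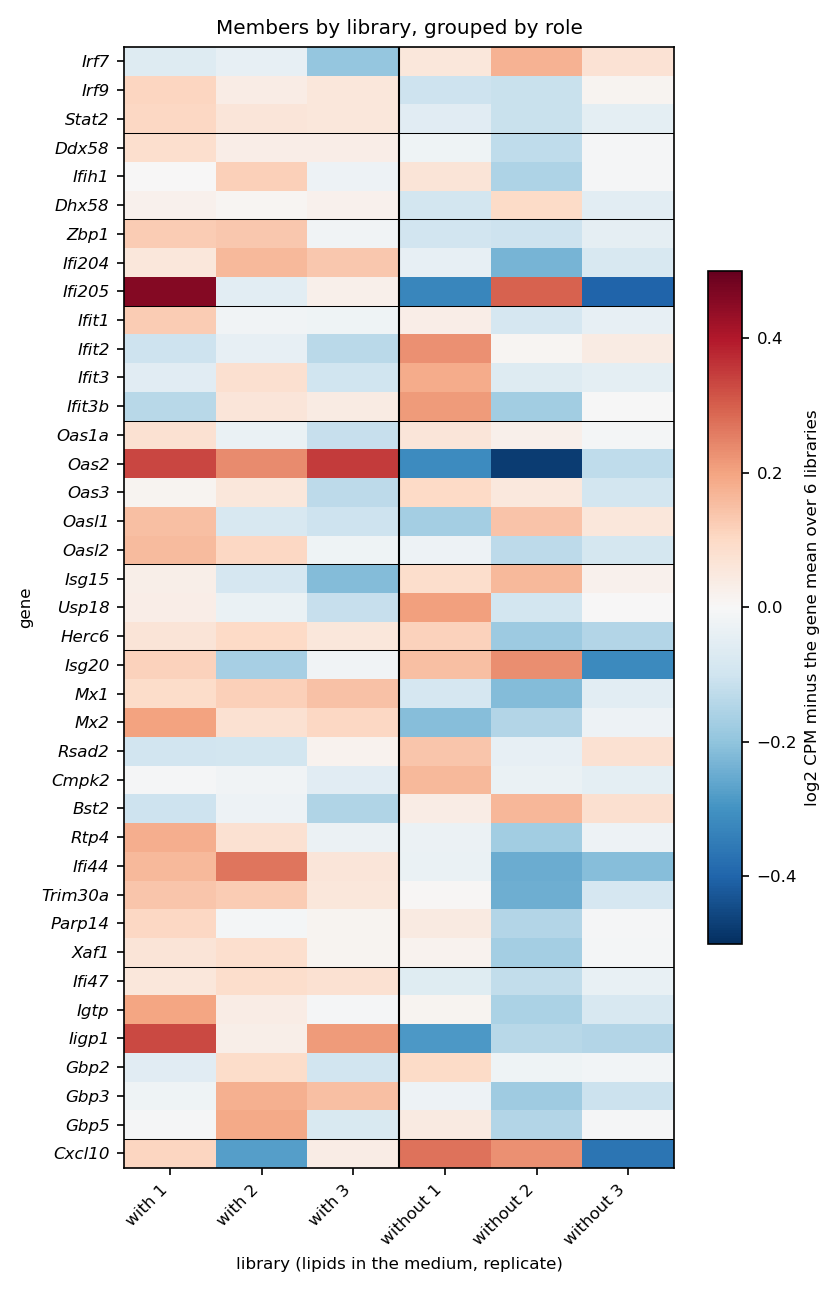
Log2 CPM of each member in each library, as the difference from that gene's mean over the 6 libraries (colour; rows are genes in blocks by role, columns are libraries by lipids in the medium and replicate). Oas2 separates the groups most clearly, and replicate 2 without lipids is the lowest library in 21 of the 39 members.

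The number of members called moved with the libraries kept and with the scaling. Once replicate 1 without lipids was removed, 8 members were higher, adding Stat2, Oasl2, Herc6, Mx1 and Trim30a, and 2 were lower, Irf7 and Bst2. In that fit 12% of all tested genes were higher and 15.1% lower. Scaled by library totals alone, 11 members were higher, adding Irf9, Stat2, Zbp1, Oasl2, Mx1, Trim30a, Ifi47 and Iigp1, beside 9.72% of all tested genes (4.67% lower), and the median of all genes itself moved to 0.07. Relative to that median the members lay at 0.08 log2 under either scaling. After the GC and length correction Oas2, Stat2 and Mx1 were higher and Ifit2 (-0.26) and Rsad2 (-0.19) lower, beside 6.88% and 9.87% of all tested genes. Other fits gave 1 to 4 members higher and 0 lower. Leaving out replicate 1, 2 or 3 with lipids left Oas2, while 2.03%, 1.69% and 1.87% of all tested genes were higher and 3.67%, 3.27% and 3.75% lower. Without replicate 3 of the libraries lacking lipids Oas2 and Ifi204 were called, beside 5.01% higher and 6.69% lower of all tested genes. With no filter 4 members were higher, Trim30a among them, beside 4.4% higher and 5.42% lower. At an adjusted p of 0.01, Oas2 was called, beside 1.69% of all tested genes higher and 3.48% lower. The same count of 3 was obtained by median-of-ratios scaling (4.75% of all tested genes higher, 6.7% lower), the 1 CPM filter (5.03%, 7.27%), DESeq2 (4.8%, 7.26%), limma-voom (4.7%, 6.62%) and the replicate block (5.6%, 7.34%).

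**Figure D5:**
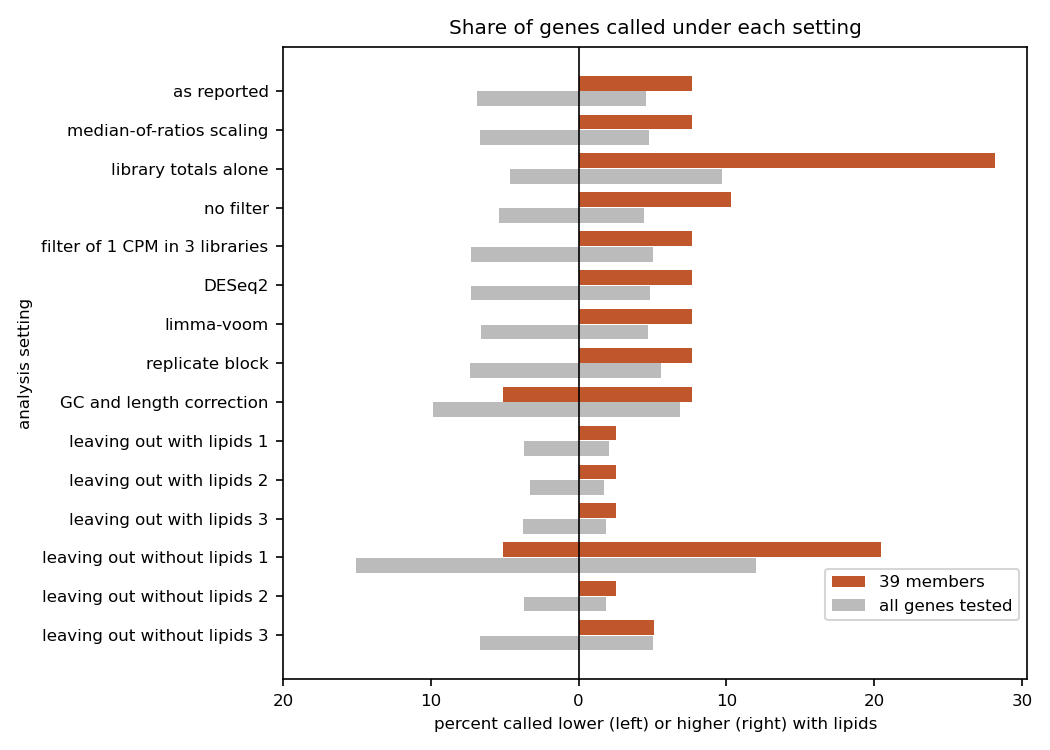
Percent of genes called higher (right of 0) or lower (left of 0) with lipids under each analysis setting (y axis), for the 39 members (coloured bars) and all genes tested (grey bars). The members' share called higher is 7.69% as reported, 28.2% with library totals alone and 20.5% when replicate 1 without lipids is left out.

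Upstream of the members, interferon transcripts themselves were at or near 0. Of 21 interferon genes of types I, II and III, 19 had 0 counts in every library, Ifng among them. Ifnb1 had 2 counts in 1 library with lipids and 1 count in 1 library without, below the 3 counts that a count of 0 allows. Transcripts of both receptor chains were present and did not pass the test. Ifnar1 averaged 239.6 ± 1.2 CPM with lipids and 243 ± 17 CPM without (-0.02 log2, edgeR adjusted p = 0.884), and Ifnar2 differed by 0.11 log2 (edgeR adjusted p = 0.419). Of 10 receptor and JAK-STAT genes 1 was higher, Stat3 at 0.29 (SE 0.08, edgeR adjusted p = 0.0316), and 0 were lower. Of all tested genes 4.58% were higher and 6.87% lower. Stat3 overlaps Stat5a on the other strand.

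Among 19 tested nucleic acid sensors and adaptors outside the set, 3 were higher and 1 lower with lipids (beside 4.58% and 6.87% of all tested genes). Tmem173 encodes STING, the adaptor for cytoplasmic DNA, and was at 79.8, 68.9 and 69.0 CPM with lipids and at 48.4, 51.7 and 60.4 CPM without (0.44, SE 0.09, edgeR adjusted p = 0.0115). Samhd1, a nucleotide hydrolase that restricts retroviruses, was higher by 0.31 (SE 0.06, edgeR adjusted p = 0.00756), and Myd88, the adaptor of most Toll-like receptors, by 0.32 (edgeR adjusted p = 0.00706). Myd88 overlaps Acaa1a on the other strand. Traf3, an adaptor that links sensors to interferon induction, was lower at -0.31 (edgeR adjusted p = 0.0387).

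Of 8 tested interferon regulatory factors outside the set 1 was higher, beside 4.58% of all tested genes higher and 6.87% lower. Irf4, a factor of myeloid and lymphoid differentiation, was at 10.9, 9.46 and 11.8 CPM with lipids and at 4.68, 5.25 and 7.44 CPM without (0.88, SE 0.16, edgeR adjusted p = 0.0062). Irf1 was at -0.08 (edgeR adjusted p = 0.626). Of 12 tested brakes on the pathway, 0 passed in either direction with edgeR, beside 11.5% of all tested genes.

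A longer list of other interferon-induced effectors held 96 tested genes, of which 13 were higher and 7 lower. Those with the smallest p among the higher were Trim30b, a relative of Trim30a, at 0.68, the GTPase gene Gbp7 at 0.41, the chemokine gene Ccl12 at 0.80 and the nuclear body gene Sp110 at 0.26. The corresponding lower genes were Ccrl2, a chemokine-binding receptor, at -1.10, Tor3a at -0.38, Slfn2 at -0.27 and Ifi27 at -0.38. These 8 genes had edgeR adjusted p between 0.00109 and 0.0181. Over all 148 tested interferon genes outside the set 18 were higher (12.2%) and 8 lower (5.41%), with a median of 0.03, beside 4.58% and 6.87% of all tested genes. Leaving out replicates 1, 2 and 3 with lipids gave 6, 6 and 5 higher and 3, 2 and 3 lower, leaving out replicate 2 without lipids gave 4 and 3, leaving out replicate 3 without lipids gave 22 and 8, and leaving out replicate 1 without lipids gave 38 and 23. The share of all tested genes called moved the same way, from 1.87% higher and 3.69% lower without that replicate 2 to 12% and 15.1% without that replicate 1.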

How the data were processed

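The authors deposited, for 6 libraries, unnormalized counts by Ensembl identifier. GRCm38.p4 is listed as build, and DESeq2, HTSeq and TopHat2 2.1.0 as tools with no role, per the submitters' processing notes. Strand setting and annotation release: not given in the sources used here. Symbols, coordinates and exon lengths came from GENCODE M21 (GRCm38), where 46091 identifiers matched and 512 did not. Counts were filtered with filterByExpr (minimum count 10, minimum total 15), scaled with TMM factors and tested with edgeR 4.0.16 (R 4.3.3), two-sided, Benjamini-Hochberg adjusted over 12767 genes, threshold 0.05. CPM used TMM-scaled totals, and RPKM divided CPM by exon-union length. SE came from the F statistic. Alternatives were median-of-ratios scaling, library totals, no filter, 1 CPM in 3 libraries, DESeq2 1.42.0, limma-voom (limma 3.58.1), a replicate block, a GC and length correction, an adjusted p of 0.01 and each library left out. Of these fits, only the edgeR fit as reported was tested on simulated data. Members, gene lists and tests were chosen with earlier results of these data known.

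Genes described with values in every library were those past the threshold as reported, when a library was left out or under another scaling, the 4 with the highest RPKM, and the largest change of each sign. Some others were added after their values were seen: Ifit2, Isg15 and Oas3. From other lists all called genes were named where 8 or fewer, otherwise the 4 with the smallest p in each direction, and Irf1, Ifnar1, Ifnar2, Ifnb1 and Ifng, while another gene of that rule is not reported here. Replicates differed by more than sampling noise, and intervals and floors cover counting error only. The difference between replicates, as chi-square per gene, was 2.67 to 4.78 with lipids and 7.78 to 19.9 without. Pairs holding replicate 1 without lipids stood highest, at 13.1 and 19.9.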

Additional observations from a re-analysis of the deposited data

How the results depend on the processing

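No called member changed direction in any fit. Oas2 was higher in every setting, at an adjusted p of 0.01 as well. The count of higher members was 11 with library totals alone (9.72% of all tested genes), 1 at an adjusted p of 0.01 (1.69%) and 1 to 8 with single libraries removed (1.69% to 12%), against 3 as reported (4.58%), and the count of lower members was 2 after the GC and length correction (9.87%) and 0 to 2 with a library left out (3.27% to 15.1%). Of the 148 other interferon genes tested as reported, 18 were higher and 8 lower, beside 4.58% and 6.87% of all tested genes. With library totals alone 34 were higher and 4 lower (9.72% and 4.67% of all tested genes). At an adjusted p of 0.01 these counts were 4 and 3 (1.69% and 3.48%). After the GC and length correction 13 were lower (9.87%). With a library left out 4 to 38 were higher and 2 to 23 lower (1.69% to 12% and 3.27% to 15.1%). The median over the members moved from 0.08 to 0.15 with library totals alone and the ratio of summed levels to 1.12, from 1.06. In the 150 bases nearest the start, 37.9% of the 29 matched members held ISRE letters, against 62.1% in the whole window, beside 1.76% of other tested genes. Over 585 recomputed member values, 552 kept their side of the threshold, 13 were no longer called (Ifi204 and Ifi44) and 20 in 13 members were newly called.

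The replicate block gave 3 higher and 0 lower members, and 17 and 9 other interferon genes, beside 5.6% of all tested genes higher and 7.34% lower. Deviations of same-numbered libraries correlated at -0.01, -0.09 and 0.18, and those of differently numbered libraries at -0.13 to 0.16. With 3 libraries in each group, these values cannot decide whether the numbers pair the samples. Groups of 3 limit what can be called, and the cause of these moves was not tested.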

Other observations

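Interferon-gamma associated genes outside the set gave 2 higher, Irgm2 at 0.29 and Gbp7 at 0.41, and 0 lower among 12 tested, with a median of -0.06, where 4.58% of all tested genes were higher and 6.87% lower. Both encode GTPases of the families that also supply Igtp, Iigp1 and Gbp3. The gamma-activated site, read as TTCNNNGAA, was present in the promoter windows of 6 of 29 members (20.7%, 95% Wilson interval 9.85% to 38.4%) and of 8.02% of other tested genes. The members that held it were Bst2, Gbp5, Ifit2, Igtp, Isg20 and Oas1a.

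The other interferon genes listed here held 8 tested PYHIN genes, a family singled out after its values were seen. Mndal, also of this family and with 13793 counts in total, was not on the lists and was not examined. Of these 8, Ifi209 at 0.31 (edgeR adjusted p = 0.0361) and Ifi208 at 0.41 (edgeR adjusted p = 0.0311) were higher, beside 4.58% of all tested genes. The other 6, Ifi203, Ifi206, Ifi207, Ifi211, Ifi213 and Aim2, were not called (edgeR adjusted p between 0.0636 and 0.5), nor was the member Ifi205. Within the members the median SD over replicates on the log2 scale was 0.08 with lipids and 0.10 without, where all tested genes had 0.07 and 0.14.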
